A study of Mus musculus with 10 samples.

Results

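Genes for splicing proteins were followed in sorted retinal ganglion cells of Satb1 knockout and wild-type mice. The set comprised all 49 genes whose symbol marks them as a snRNP protein (Snrp, 12 genes), a serine/arginine-rich splicing factor (Srsf, 11 genes), a heterogeneous nuclear ribonucleoprotein (Hnrnp, 18 genes) or a subunit of SF3a or SF3b (Sf3, 8 genes), out of 23258 gene symbols in the deposited table. The set was drawn up around Snrpa, which had been noticed for its higher level in the knockout libraries, and the question was whether Snrpa differed alone or with its relatives. The levels of Snrpa below are therefore a description without a test, and the knockout and wild-type values of its relatives come from the same contrast.

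Ganglion cells are the output neurons of the retina. Those studied came from mice of the C57BL/6 strain at postnatal day 6 and carried the Hb9-GFP reporter, in which promoter sequences of Hb9 (Mnx1) drive green fluorescent protein. It marks a subtype of ganglion cell that responds to motion in a preferred direction. The knockout group was Satb1-/- with the Hb9-GFP reporter (5 libraries) and the wild-type group carried the reporter alone (5 libraries), each library from another litter and from about 1000 sorted cells. Satb1 is a chromatin organizer, and the labels do not say which part of the gene is missing or in which cells.

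Pre-mRNA splicing is carried out by the spliceosome, which assembles on each intron from the U1, U2, U4, U5 and U6 small nuclear ribonucleoproteins (snRNPs). U1 recognizes the start of the intron and U2, with SF3a and SF3b, its branch site. A ring of Sm proteins wraps the snRNA of all these particles except U6. SR proteins mostly promote and many hnRNPs mostly repress the use of nearby splice sites, and genes of both groups are known to limit their own output through alternative exons that lead to RNA decay. Neurons are rich in alternative splicing and express these general factors together with tissue-restricted ones.

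Snrpa encodes the A protein of the U1 snRNP, which binds a loop of U1 snRNA. It is known, mainly from the human gene, to bind a pair of short boxes in the 3′ UTR of its own mRNA and to inhibit its polyadenylation, so that excess protein lowers its own mRNA. The mouse sites are shown because they mark Snrpa off from its relatives. In the longest coding transcript of Snrpa in GENCODE M21 (GRCm38, the build called mm10), which has 7 exons, the boxes ATTGTAC and ATTGCAC lay in the 3′ UTR part of exon 7, 19 bases apart, the second ending 50 bases before the transcript end. Capitals mark the box in each 27-base stretch, and the loop region of a mouse U1 snRNA gene is given for comparison.
Snrpa, first box, chr7:27187073-27187099, minus strand: gccacacagcATTGTACccagagtctg
Snrpa, second box, chr7:27187047-27187073, minus strand: gtccccagacATTGCACctggcgctgt
Rnu1a1, chr11:87422921-87422947, plus strand: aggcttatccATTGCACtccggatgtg

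The U1 snRNA and the second Snrpa site share the same 7 bases. In the last 150 bases of the longest coding transcript of 21835 protein-coding genes, read on the transcript strand only, 1.84% held at least 1 of the 2 boxes and 0.0183% (4 genes) held both. Among the 49 splicing genes, Srsf1 was the other with a box in that window. A match of letters describes the sequence and does not show binding.

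Values are TPM (transcripts of a gene per 1000000 transcripts), a level scaled for transcript length, so that genes can be set beside each other. Satb1 itself stood at 170.4, 126, 83.1, 34.9 and 24.1 TPM in knockout 1 to 5 and at 304, 189, 414, 132 and 38.6 TPM in wild-type 1 to 5 (log2 difference -1.25, SE 0.71). The genotypes overlapped, so its RNA level is a weak check of the labels. All 14 ganglion cell markers passed the filter on low values, with a summed level of 12875 TPM or more in every library. The highest sum was 100210 TPM, in knockout 3, against at most 29577 TPM in wild type, and 3 of the 14 genes were higher on average in knockout. The first principal component of all tested genes (32.9% of the variance) set knockout 4, knockout 5 and wild-type 5 apart, at scores of 88.0 to 149, against at most -14.2 in the other 7 libraries. The share of TPM from 84 ribosomal protein genes was 12.2% to 13.7% in those 3 libraries, against 3.87% to 8.03% elsewhere. The ganglion cell marker Slc17a6 was at 55.2 to 96.7 TPM in those 3 libraries and at 176 to 726 TPM elsewhere. Pou4f1 was at 37.4 to 72.7 TPM in them and at 194 to 371 TPM elsewhere. The ranges overlapped for Rbpms, and for Sncg, which was highest in wild-type 5. The second component of all tested genes (13.0% of the variance) set wild-type 4 alone apart, at a score of -145, against 6.87 or more elsewhere. All 49 splicing genes passed the filter of at least 1 TPM in at least 5 libraries.

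Snrpa lies on the minus strand of chromosome 7, from 27187005 to 27196271. Its level was 109, 159.6, 82.2, 215 and 306 TPM in knockout 1 to 5, against 76.6, 66.3, 19.3, 60.9 and 21.4 TPM in wild-type 1 to 5. Every knockout library was above every wild-type library, with the narrowest gap between knockout 3 and wild-type 1. The means were 174 ± 89.3 TPM in knockout and 48.9 ± 26.7 TPM in wild type (SD, n = 5 each), a ratio of 3.57, and the log2(TPM + 1) difference was 1.88 (SE 0.62). By that difference Snrpa ranked 94 among 11744 tested genes and first among the 49. Of all tested genes, 0.0766% had every knockout library above every wild-type library, and since Snrpa was picked from this contrast nothing is read from that share. Bulk values cannot tell a change in RNA per cell from a change in which cells were sorted.

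The 2 highest Snrpa levels were in knockout 4 and 5, which stood apart on the first component. Wild-type 5, which stood with them, had one of the 2 lowest. Without these 3 libraries the difference was 1.17 (SE 0.60). The part of this separation of libraries in the Snrpa difference was not tested. The summed level of 15 rod photoreceptor markers was 331, 74.8, 565, 509.6 and 35.7 TPM in knockout 1 to 5 and 16.5, 25.2, 19.0, 504 and 672 TPM in wild-type 1 to 5. Of its 11 tested genes 10 were higher on average in knockout, against 32.6% of all tested genes, and no marker was at 0 in all libraries. The summed direction-selective ganglion cell markers (6 genes) were at 116 to 308 TPM in knockout and 534 to 1107 TPM in wild type, without overlap. Of these genes 0 were higher on average in knockout. Muller glia markers (10 genes) summed to 122 to 7850.1 TPM in knockout and 271 to 507 TPM in wild type, the highest sum being in knockout 5, and 4 of their 5 tested genes were higher on average in knockout. Amacrine cell markers (10 genes) summed to 384 to 1702 TPM in knockout and 632 to 1014.5 TPM in wild type, with 1 of 4 tested genes higher. Their 2 highest sums were in knockout 4 and 5, which also had the highest Snrpa levels. The same held for 5 red blood cell markers, at 63.2 and 182 TPM in knockout 4 and 5, of which 0 passed the filter. Bipolar cell, cone and endothelial cell sums were instead highest in knockout 2, wild-type 5 and wild-type 1. Microglia markers (10 genes) summed to 76.2 to 3099 TPM in knockout and 7.01 to 2289 TPM in wild type, with 5 of 10 tested genes higher. The part of these cell types in the Snrpa difference was not tested.

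The first 491 bases of Snrpa overlap BC024978, a protein-coding gene on the opposite strand, and the use of strand in counting is not given in the sources used here. BC024978 stood at 17.7, 2.03, 5.81, 22.9 and 3.6 TPM in knockout 1 to 5 and at 25.9, 28.6, 28.8, 4.83 and 68.1 TPM in wild-type 1 to 5. Its highest value was in a wild-type library with low Snrpa. A pair of annotated copies of the Snrpa transcript, at least 95% identical over at least 300 bases, had no entry of their own in the table, so reads from them may have been assigned to Snrpa.

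**Figure D1:**
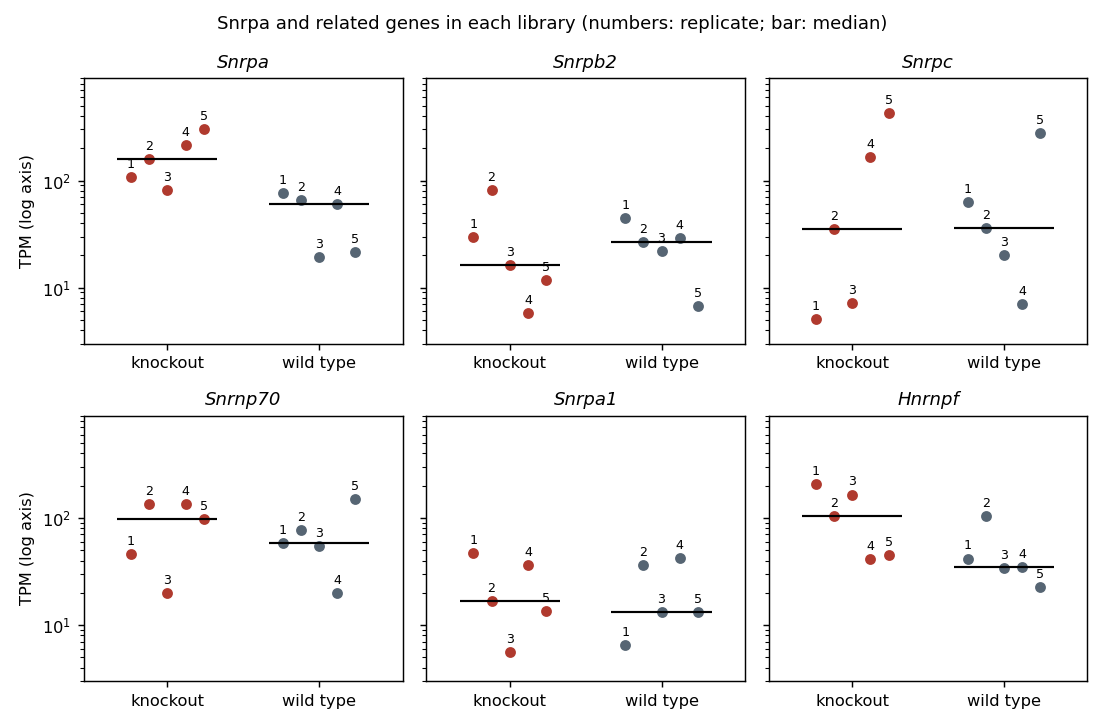
TPM on a log axis of Snrpa, its paralog Snrpb2, the U1 proteins Snrpc and Snrnp70, the U2 protein Snrpa1 and Hnrnpf in each library, knockout left and wild type right, with replicate numbers and the median as a bar. Snrpa is the panel in which the genotypes do not overlap.

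The other U1 snRNP proteins did not follow this pattern. Snrpc encodes the C protein of the U1 snRNP, which steadies the pairing of U1 with the 5′ splice site. It was at 5.07, 35.0, 7.11, 165 and 432 TPM in knockout 1 to 5 and at 62.7, 36.3, 19.99, 7.0 and 277 TPM in wild-type 1 to 5. Its highest levels were in the 3 libraries apart, in both genotypes, and the log2 difference was 0.04 (SE 1.09). Snrnp70 encodes U1-70K, which binds another loop of U1 snRNA and lies outside the symbol rule. It was at 46.2, 135, 20.1, 136 and 97.9 TPM in knockout and at 58.9, 77.6, 54.5, 20.1 and 152 TPM in wild type, with a log2 difference of 0.23 (SE 0.69). The 2 genotypes overlapped over most of their range for both genes.

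Snrpb2 encodes B″ of the U2 snRNP, the close relative of the U1 A protein. Its level was 29.8, 82.1, 16.3, 5.74 and 11.8 TPM in knockout 1 to 5 and 44.7, 26.8, 21.8, 28.8 and 6.67 TPM in wild-type 1 to 5, a log2 difference of -0.16 (SE 0.77). Snrpa1 encodes A′ of the U2 snRNP, the partner with which B″ binds U2 snRNA. It was at 47.3, 16.9, 5.54, 36.0 and 13.4 TPM in knockout and at 6.49, 36.0, 13.3, 42.6 and 13.2 TPM in wild type (0.06, SE 0.76). The genotypes overlapped for both U2 proteins. The ratio of Snrpa to Snrpb2 in the same library was 1.94 to 37.5 in knockout and 0.882 to 3.21 in wild type, the 2 largest ratios being in knockout 4 and 5.

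Set against the whole group, Snrpa took 2.20%, 2.72%, 2.13%, 4.92% and 11.7% of the summed TPM of the other 48 genes in knockout 1 to 5. In wild-type 1 to 5 the share was 1.34%, 1.07%, 0.293%, 1.18% and 0.634%. These shares rest on the same Snrpa values and are given as a description. They did not overlap between genotypes. Neither did another measure on those values, log2(TPM + 1) of Snrpa minus the median of the other genes. It was 0.942 to 3.58 in knockout and -1.36 to 0.65 in wild type. The other relative measures overlapped. Ranked by TPM among the 49 genes, Snrpa was 18, 11, 11, 7 and 3 in knockout 1 to 5 and 21, 23, 44, 18 and 26 in wild-type 1 to 5. The ratio to Snrpa1 was 2.30 to 22.8 in knockout and 1.43 to 11.8 in wild type. The ratio to Snrpc was 0.708 to 21.5 in knockout and 0.0773 to 8.69 in wild type, and the ratio to Snrnp70 was 1.18 to 4.09 in knockout and 0.141 to 3.03 in wild type.

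The Snrp genes, most of which encode the Sm core, were the most variable family, with a median SD of 1.52 on the log2(TPM + 1) scale over the 10 libraries, against 1.2 for all tested genes. Snrpg (SmG), the second most abundant gene of the 49 in wild type, was at 318, 461, 461, 1139 and 406 TPM in knockout 1 to 5 and at 654, 243, 381, 1684 and 890.0 TPM in wild-type 1 to 5. Its log2 difference was -0.31 (SE 0.58), and the knockout range lay inside the wild-type range. Snrpe (SmE) was at 10.1, 49.1, 32.1, 224 and 141 TPM in knockout 1 to 5 and at 18.1, 356, 204 and 87.2 TPM in wild-type 1, 2, 3 and 5, and was listed at 0 in wild-type 4. An exact 0 for a gene that every cell uses can be a failed estimate, and wild-type 4 was also the library apart on the second component. What lies behind this 0 was not tested.

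Snrpd2 (SmD2) was at 19.9, 62.4, 110.5, 487 and 3.32 TPM in knockout 1 to 5 and at 152, 69.6, 46.4, 122 and 429 TPM in wild-type 1 to 5, with a log2 difference of -1.29 (SE 0.96). Knockout held both the highest and the lowest value. Snrpd3 (SmD3) was at 65.3, 17.6, 5.53, 18.4 and 7.11 TPM in knockout 1 to 5 and at 45.4, 37.3, 206, 2.85 and 63.8 TPM in wild-type 1 to 5 (-1.23, SE 0.92). Wild type here held both the highest and the lowest value. Snrpd1 (SmD1) was at 9.28 to 192 TPM in knockout and 7.40 to 1304 TPM in wild type (-1.06, SE 1.04), and its high mean in wild type came from wild-type 2 alone. Snrpn encodes SmN, which replaces SmB in neurons and is expressed from the paternal allele. It was at 288, 353, 18.1, 109.9 and 2.82 TPM in knockout 1 to 5 and at 488, 76.0, 140.3, 309 and 16.7 TPM in wild-type 1 to 5 (-1.03, SE 1.08). Its locus is shared with Snurf, which the table lists apart, so the split of reads between them is uncertain. Snrpb, which encodes SmB, was at 12.3 to 122 TPM in knockout and 17 to 112 TPM in wild type (0.20, SE 0.73). Snrpf (SmF), the lowest Sm gene, was at 7.64 to 20.9 TPM in knockout and 2.95 to 24.9 TPM in wild type (0.42, SE 0.73). The genotypes overlapped for every Sm gene.

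For most SR protein genes the lowest levels were found in 3 libraries that came from both genotypes. Srsf5, the most abundant of the 49 genes, was at 808, 1197, 709, 259 and 254 TPM in knockout 1 to 5 and at 815, 889.5, 1867, 654 and 282 TPM in wild-type 1 to 5. Knockout 4, knockout 5 and wild-type 5 were its 3 lowest libraries, and the log2 difference between genotypes was -0.49 (SE 0.60). Srsf2 (SC35) was at 116, 247, 191, 83.0 and 63.8 TPM in knockout and at 164, 174, 506, 211 and 37.2 TPM in wild type (-0.39, SE 0.66), low in the same 3 libraries. Those 3 libraries were the 3 lowest for 8 of the 11 SR genes, among them Srsf1, Srsf6, Srsf7, Srsf10, Srsf11 and Srsf12. The same held for 6 of 18 hnRNP genes, 1 of 8 Sf3 genes and 1 of 12 Snrp genes, and for 21.2% of all tested genes.

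The summed level of the 11 SR genes was 1674, 2015, 1283, 542 and 526 TPM in knockout 1 to 5 and 1596, 1599.5, 2890.5, 1207 and 457 TPM in wild-type 1 to 5. The sum was thus more than 2 times lower in knockout 4, knockout 5 and wild-type 5 than in any other library. Srsf4 went the other way. It was at 39.5, 18.3, 15.6, 72.2 and 43.9 TPM in knockout 1 to 5 and at 13.8, 27.6, 19.4, 23.7 and 59.6 TPM in wild-type 1 to 5 (0.34, SE 0.67), with the same 3 libraries as its highest. Srsf9 followed neither pattern. It was at 4.56, 3.18, 47.9, 16.7 and 52.4 TPM in knockout 1 to 5 and at 1.14, 37.6, 1.77, 19.1 and 3.47 TPM in wild-type 1 to 5, with a log2 difference of 1.14 (SE 0.97). Only knockout 3 and 5 were above all wild-type libraries.

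The most negative SR differences were those of Srsf12, which codes for an SR protein that represses splicing, and Srsf11. Srsf12 was at 61.3, 37.3, 34.5, 15.2 and 5.70 TPM in knockout 1 to 5 and at 76.7, 71.4, 101, 26.5 and 5.47 TPM in wild-type 1 to 5 (-0.70, SE 0.82). Srsf11 was at 128, 70.7, 74.2, 26.3 and 21.6 TPM in knockout and at 184, 124, 87.4, 71.1 and 16.4 TPM in wild type (-0.52, SE 0.71). In both genes the lowest library was wild-type 5, and the genotypes overlapped. Srsf3, the smallest SR protein, was at 21 to 201 TPM in knockout and 18.6 to 102 TPM in wild type (0.09, SE 0.69). Srsf1 (-0.16, SE 0.84), Srsf6 (-0.02, SE 0.74), Srsf7 (0.11, SE 0.73) and Srsf10 (-0.49, SE 0.84) overlapped as well. Without the 3 low libraries the differences of Srsf1, Srsf6 and Srsf7 were 0.58 (SE 0.58), 0.50 (SE 0.54) and 0.44 (SE 0.60). In that setting 7 of the 11 SR genes were higher and 4 lower in knockout, against 37.6% of all tested genes higher.

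**Figure D2:**
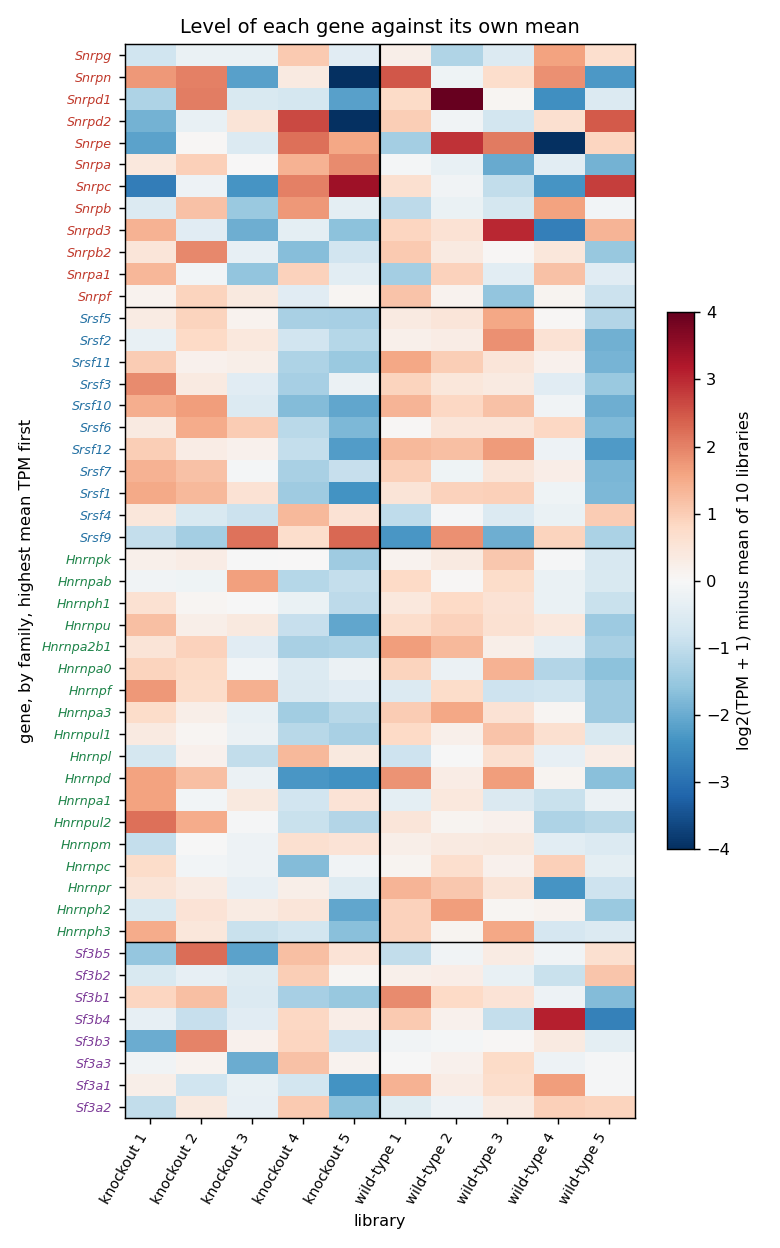
Log2(TPM + 1) of each of the 49 genes minus its mean over 10 libraries (color, red above and blue below), knockout libraries left and wild-type libraries right, genes grouped by family and ordered by mean TPM. Most SR genes are blue in knockout 4, knockout 5 and wild-type 5, while the Sm genes vary library by library.

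Among the hnRNP genes, Hnrnpf came closest to Snrpa in the size of its difference. It encodes a protein that binds runs of G in RNA. Its level was 208, 103, 165, 41.3 and 45.2 TPM in knockout 1 to 5 and 41.8, 104, 34.3, 35.0 and 22.6 TPM in wild-type 1 to 5. The means were 113 ± 73.4 TPM in knockout and 47.5 ± 32.2 TPM in wild type (SD, n = 5 each), and the log2 difference was 1.14 (SE 0.65). The genotypes overlapped, because wild-type 2 was above 3 knockout libraries. With knockout 4, knockout 5 and wild-type 5 left out, the differences of Hnrnpf (1.65, SE 0.57) and Hnrnpul2 (1.33, SE 0.68) were larger than that of Snrpa, so the first place of Snrpa in the set rested on those libraries.

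Hnrnpa1, a repressor that competes with SR proteins at splice sites, was at 145, 43.7, 61.7, 27.6 and 69.8 TPM in knockout 1 to 5 and at 36.2, 64.0, 31.1, 25.1 and 40.3 TPM in wild-type 1 to 5 (0.66, SE 0.61). Knockout 1 was the highest and the other libraries overlapped. Hnrnpa1 has 9 annotated near-identical copies and Hnrnpf 8, of which 2 copies of Hnrnpa1 and none of Hnrnpf have an entry in the table, so reads of Hnrnpa1 may be split with those entries and reads from the other copies may have been assigned to either gene. At the other end, Hnrnpd (AUF1), which binds AU-rich elements and affects mRNA decay, was at 113, 85.4, 30.9, 6.58 and 6.01 TPM in knockout 1 to 5 and at 132, 45.0, 119.7, 39.5 and 10.9 TPM in wild-type 1 to 5 (-0.88, SE 0.87). Hnrnpul1, a relative of the nuclear scaffold protein hnRNP U, was at 80.4, 65.1, 52.1, 28.5 and 24.8 TPM in knockout and at 107, 71.9, 138, 97.8 and 40.3 TPM in wild type (-0.87, SE 0.60). For both genes the ranges overlapped.

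The most abundant hnRNP gene was Hnrnpk, whose protein binds C-rich RNA and DNA, at 257, 276, 220.1, 226 and 82.7 TPM in knockout 1 to 5 and at 248, 287, 470.2, 218 and 142 TPM in wild-type 1 to 5 (-0.36, SE 0.54). Hnrnpab was at 149, 145, 516, 74.2 and 84.5 TPM in knockout 1 to 5 and at 285, 168, 275, 135 and 108 TPM in wild-type 1 to 5 (-0.29, SE 0.60). Its highest value, in knockout 3, was 1 library among 10. The other hnRNP genes all overlapped between genotypes. Hnrnpul2, a further relative of hnRNP U, was at 156, 94.4, 32.5, 17.5 and 14.3 TPM in knockout 1 to 5 and at 46.9, 35.9, 37.8, 13.5 and 15.0 TPM in wild-type 1 to 5 (0.63, SE 0.74), so that knockout 1 and 2 were its high libraries. Hnrnpu was at 26.2 to 262 TPM in knockout and 41.1 to 213 TPM in wild type (-0.47, SE 0.67). Hnrnpa2b1, whose protein takes part in RNA transport in neurons, was at 40.4 to 189 TPM in knockout and 39.8 to 319 TPM in wild type (-0.62, SE 0.67). Hnrnpa2b1 and Hnrnpu were lowest in knockout 4, knockout 5 and wild-type 5, as most SR genes were. Hnrnpa3 (-0.71, SE 0.67), which has 27 annotated near-identical copies, and Hnrnpc (-0.60, SE 0.65), which binds runs of U, were next on the negative side. The remaining differences ran from -0.53 for Hnrnph2 (SE 0.76) and Hnrnph3 (SE 0.76), through Hnrnph1 (-0.25, SE 0.55), Hnrnpm (-0.01, SE 0.60), Hnrnpl (0.08, SE 0.61) and Hnrnpr (0.09, SE 0.75), to 0.30 for Hnrnpa0 (SE 0.65).

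The steadiest gene of the 49 was Hnrnpm, for which the highest library was 3.12 times the lowest. For Snrpd1 that ratio was 176, the widest among the 47 genes above 0 everywhere, and for 28 of the 47 it was at least 10.

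**Figure D3:**
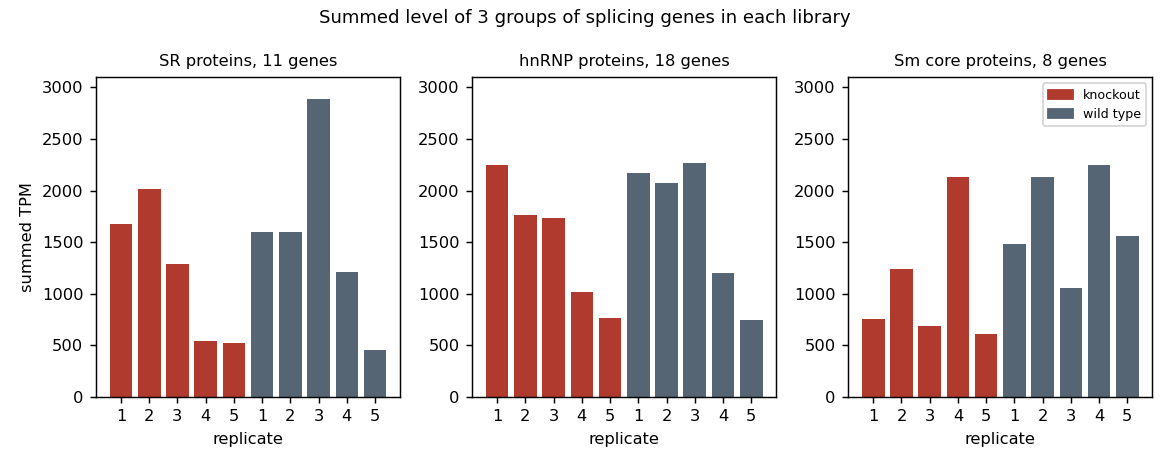
Summed TPM of the 11 SR genes, the 18 hnRNP genes and the 8 Sm core genes in each library, knockout replicates 1 to 5 left of wild-type replicates 1 to 5 in each panel. The SR and hnRNP sums are low in knockout 4, knockout 5 and wild-type 5, while the Sm sum is low in knockout 5 only among these 3 libraries.

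SF3a and SF3b hold U2 at the branch site. Sf3a1, which encodes the largest SF3a subunit, had the most negative difference of the 49 genes. It was at 14.3, 6.60, 9.68, 6.83 and 1.51 TPM in knockout 1 to 5 and at 33.9, 15.1, 20.5, 40.8 and 11.6 TPM in wild-type 1 to 5. Means were 7.79 ± 4.69 TPM in knockout and 24.4 ± 12.5 TPM in wild type (SD, n = 5 each), and the log2 difference was -1.61 (SE 0.74). The only overlap was knockout 1, which was above wild-type 5. In the 7 libraries without those apart on the first component, Sf3a1 was the one other gene of the set besides Snrpa whose genotypes did not overlap, a state found in 5.59% of all tested genes with so few libraries.

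The other SF3a subunits overlapped between genotypes. Sf3a2, the lowest gene of the set, was at 0.553, 3.07, 1.49 and 5.37 TPM in knockout 1 to 4, was listed at 0 in knockout 5, and stood at 1.24, 1.67, 2.96, 5.06 and 4.73 TPM in wild-type 1 to 5 (-0.61, SE 0.67). Sf3a3 was at 4.18 to 45.1 TPM in knockout and 16.9 to 34.2 TPM in wild type (-0.27, SE 0.70). Sf3b5, a small SF3b subunit and the highest Sf3 gene, was at 32.3, 455, 21, 224 and 142 TPM in knockout 1 to 5 and at 48.5, 87.4, 123, 87.8 and 151 TPM in wild-type 1 to 5 (0.11, SE 0.75). The knockout values were spread both above and below the wild-type ones. Sf3b3 was likewise more spread in knockout, at 4.62, 86.7, 24.2, 39.4 and 11.5 TPM in knockout and 19.3, 20.2, 22.3, 27.3 and 16.2 TPM in wild type (0.07, SE 0.75). Sf3b2 was at 33.1, 40.1, 34.8, 101 and 53.0 TPM in knockout and 57.9, 60.8, 41.2, 26.7 and 109 TPM in wild type (-0.15, SE 0.61). Its 2 highest libraries were 1 of each genotype. Sf3b1, whose protein contacts the branch site region, was at 12.1 to 86.1 TPM in knockout and 10.3 to 139 TPM in wild type (-0.53, SE 0.77). Sf3b4 was at 10.2 to 36.7 TPM in knockout and 2.30 to 185 TPM in wild type (-0.26, SE 0.89), its high value being in wild-type 4.

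Counted over the whole set, 18 genes were higher and 31 lower in knockout on average, with a median log2 difference of -0.26. Over all tested genes 32.6% were higher, 67.4% were lower and the median was -0.31, close to the set. Without Snrpa the median was -0.27. The Snrp genes had 6 higher and 6 lower (median -0.06), the SR genes 4 and 7 (-0.16), the hnRNP genes 6 and 12 (-0.33) and the Sf3 genes 2 and 6 (-0.27). These directions depended on scaling between libraries. Median centring, which moved the median of all genes to 0.07, gave 29 genes higher and 20 lower with a median of 0.12, and positive medians for all 4 families. Quantile normalization gave 25 higher and 24 lower, with a negative median for the hnRNP genes (-0.17) alone.

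**Figure D4:**
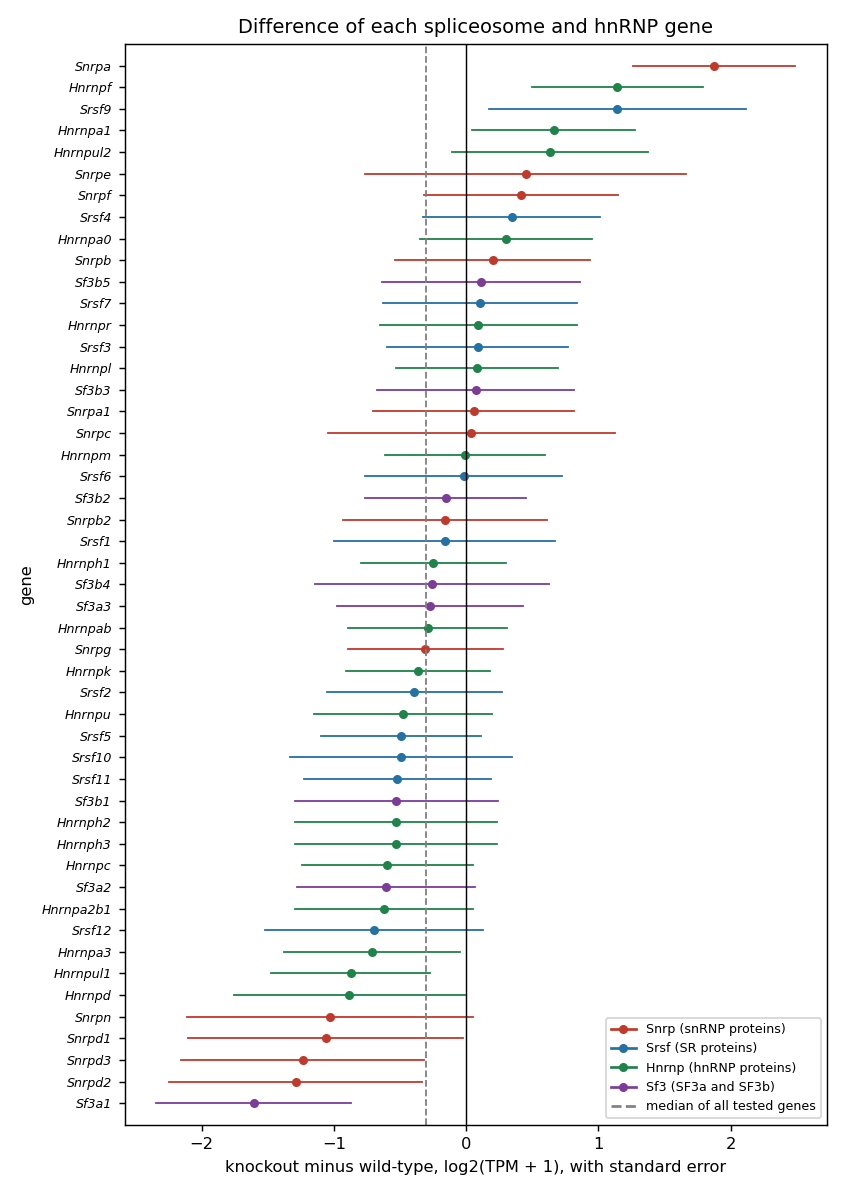
Knockout minus wild-type difference of each of the 49 genes on the log2(TPM + 1) scale (point) with its standard error (line), colored by family, with the median of all tested genes dashed. Snrpa is at the top at 1.88, Hnrnpf and Srsf9 follow at 1.14, and Sf3a1 is at the bottom at -1.61.

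Across all genes, limma with Benjamini-Hochberg adjustment called 0 of 11744 at an adjusted p under 0.05 (0%) and 0 of the 49, whose adjusted p was 0.992 or more. At an unadjusted p under 0.05 there were 2 of the 49, Snrpa and Sf3a1, against 3.31% of all tested genes (0.741% higher and 2.57% lower in knockout). Snrpa was the only gene of the 49 without overlap between genotypes, against 0.502% of all tested genes (0.0766% higher and 0.426% lower in knockout). A difference of at least 1 on the log2 scale was found in 3 of the 49 as higher (Snrpa, Hnrnpf and Srsf9), against 5.12% of all tested genes. In the other direction it was found in 5, Sf3a1, Snrpd1, Snrpd2, Snrpd3 and Snrpn, against 13.5% of all tested genes. Because the set was drawn up from this same contrast, nothing is read from these counts.

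The data do not show that the other genes stayed the same. The median SE over the 49 genes was 0.73. For 31 of the other 48 the 95% interval of the difference reached 1 or more, that is, it included a doubling on the log2(TPM + 1) scale. For 44 of the 48 it reached -1 or less, a halving on that scale, and for 27 it included both. For 7 of the 48 (Hnrnpa1, Hnrnpf, Hnrnpul2, Snrpc, Snrpe, Snrpf and Srsf9) the interval reached the point estimate of Snrpa (1.88), and for the other 41 it did not. The Snrpa estimate has its own 95% interval of 0.59 to 3.16, and Snrpa was picked for its high value. The split therefore does not show that those 41 differed less than Snrpa.

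Genes of the wider splicing machinery were taken from 10 lists with 144 entries, of which 140 were tested. The lists were drawn up by function, with earlier results of these data known. None passed at an adjusted p under 0.05 (limma), and 4 had an unadjusted p under 0.05, against 3.31% of all tested genes. On average 47 were higher and 93 lower in knockout, against 32.6% higher and 67.4% lower over all tested genes, and the median difference was -0.27, against -0.31. After median centring 80 were higher and 60 lower, with 53.9% of all tested genes higher. The counts of each list are to be read beside these shares.

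In the U4/U6.U5 tri-snRNP list, 7 genes were higher and 9 lower. Its most positive gene was Prpf31, which encodes a U4/U6 protein and is a retinitis pigmentosa gene in humans. It was at 10.4, 11.2, 60.4, 11.5 and 219.9 TPM in knockout 1 to 5 and at 10.6, 15.1, 4.77, 12.1 and 1.67 TPM in wild-type 1 to 5 (1.85, SE 0.89). The genotypes overlapped, and the high mean came from knockout 3 and 5. Snrnp27 was the most negative (-1.61, SE 0.87). Sart1, a protein needed to join the tri-snRNP to the rest, was the one gene of the 140 without overlap, a pattern found in 0.502% of all tested genes. Sart1 was named after its values were seen, and was at 0.706 to 4.41 TPM in knockout and 4.70 to 20.5 TPM in wild type (-1.40, SE 0.71).

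The U1-associated list had 3 genes higher and 7 lower, from Luc7l3 (-1.10, SE 0.74) to Tial1 (0.35, SE 0.92). The list of branch site and U2 recruitment factors had 3 higher and 6 lower, from Rbm17 (-0.89) to U2af1 (0.40), the small subunit that reads the 3′ splice site. In the LSm ring, which takes the place of Sm proteins on U6, 4 were higher and 4 lower. Lsm2 was at 12.2, 0.522, 1.28, 19.5 and 3.6 TPM in knockout 1 to 5 and at 28.5, 18.5, 64.8, 34.9 and 22.0 TPM in wild-type 1 to 5 (-2.56, SE 0.82), with knockout 4 above wild-type 2. Lsm3 had the most positive difference of that list (1.43, SE 0.98) and was listed at 0 in wild-type 4.

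The PRP19 and catalytic list had 10 higher and 8 lower, from Cwc22 (-1.17) to Xab2 (1.31). The minor spliceosome list had 3 higher and 6 lower, from Rnpc3 (-1.43) to Snrnp25 (1.90), whose value of 2395 TPM in knockout 5 stood far above its other libraries and which was listed at 0 in knockout 2 and 3. The SMN complex, which loads Sm proteins onto snRNA, had 3 higher and 10 lower, from Gemin7 (-2.74, SE 0.99), listed at 0 in knockout 1, to Wdr77 (1.46). The exon junction list had 4 higher and 4 lower, from Magohb (-2.20) to Magoh (0.92), genes for 2 near-identical proteins, with opposite signs. Reads may have been split between them, but the likeness of their transcripts was not measured and such a split was not tested.

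Of the SR-related proteins and SR kinases 1 was higher and 13 lower (median -0.68, against -0.31 for all tested genes), from Srpk2 (-1.22, SE 0.74) to Tra2b (0.07, SE 0.71). After median centring 4 were higher and 10 lower, and after quantile normalization 3 were higher and 11 lower. Srpk2 encodes a kinase that phosphorylates SR proteins, and was at 8.28 to 34.9 TPM in knockout and 9.44 to 112 TPM in wild type. Of the tissue-restricted regulators 9 were higher and 26 lower (median -0.37, and 0.01 after median centring), from Ptbp1 (-2.0, SE 0.96), which represses neuronal exons, to Celf6 (1.12).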

How the data were processed

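RNA of about 1000 sorted cells per sample was amplified as cDNA and sequenced single-end, per the labels. The deposited table holds log10 values of TPM + 1, made by the authors. The base and offset were read from the values, since each library then sums to 1000000 TPM. Per the submitters' processing notes, TopHat2 2.0.10 and Cufflinks were used with mm10. How reads were counted, on which annotation and strand, is not given in the sources. TPM keeps no depth, so no counting interval or detection limit was computed.

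Entries with a number for a symbol (26, at most 0.198% of TPM) were left out and 240 repeated symbols, no member among them, were summed. Differences are knockout minus wild type on log2(TPM + 1), pseudocount 1, which understates changes of low genes. Genes with at least 1 TPM in 5 libraries entered limma 3.58.1 (R 4.3.3) with a variance trend and genotype as the only term. The fit was tested on simulated normal values with the means and spreads of the real genes. At an adjusted p under 0.05 (limma) it recovered 0.8% of 2-fold and 6.8% of 4-fold changes. Of 8-fold changes it recovered 38.8%, and of 16-fold changes 72.8%. A count of 0 genes called therefore does not show that genes were unchanged. Coordinates and transcripts are from GENCODE M21, in which all 49 symbols matched, and copies were sought with BLAST 2.17.0.

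The members, lists and tests were chosen with earlier results of these data known. Any member may be named. Values per library are given for Snrpa, Snrpc, Snrpb2 and Snrpa1, and per family for the 2 highest in level and the 2 most positive and most negative differences. Those of Hnrnpul2 are given in addition, outside this rule. From each list the most positive and most negative genes are named. Alternatives covered the pseudocount, filter, scaling, a replicate block, library weights, repeated symbols and libraries left out.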

Additional observations from a re-analysis of the deposited data

Results flagged for a closer look

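In 98 groups of 5 libraries (49 genes in 2 genotypes), 2 held a library far from the other 4, where chance flags about 1 group in 20. Hnrnpk was at 82.7 TPM in knockout 5, against 220.1 to 276 TPM in the other knockout libraries, and without that library its log2 difference was -0.05 in place of -0.36. Hnrnpu was at 41.1 TPM in wild-type 5, against 152 to 213 TPM in the other wild-type libraries, and without that library its difference was -0.89 in place of -0.47.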

How the results depend on the processing

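The count of genes called over the whole table (0) was 3 with library weights and 1 with a minimum of 5 TPM. With each library left out it was 0 to 1, being 1 without wild-type 3, wild-type 4 or wild-type 5. None of the 49 was called in any of the 20 alternatives. The 18 members higher in knockout became 29 after median centring and 13 to 22 with a library left out. The Snrpa difference (1.88) ran from 1.17 without knockout 4, knockout 5 and wild-type 5 to 2.25 after median centring, and from 1.60 to 2.11 with a library left out. The median of the members (-0.26) ran from -0.47 to 0.12. Of the 25 other genes described by rule, 14 kept their sign throughout. Whether replicate numbers pair the libraries is not settled by these values. Correlations of same-numbered deviations were -0.03 to 0.36. Knockout 1, 3 and 5 correlated best with the same number, and knockout 2 and 4 with another. With the replicate block the Snrpa difference was 1.88 (SE 0.51), the count of genes called 0 and the members higher 18, while 830 genes had an unadjusted p under 0.05, against 389 without it. TPM gives no depth, so precision rests on the spread between 5 libraries.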

Other observations

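A few genes of the same families carry older symbols in the table and fall outside the symbol rule. Hnrpdl, the paralog of Hnrnpd, was at 41.3, 81.2, 58.2, 26.9 and 24.2 TPM in knockout 1 to 5 and at 64.5, 50.1, 64.3, 62.8 and 28.2 TPM in wild-type 1 to 5 (log2 difference -0.30, SE 0.60). Hnrpll, a paralog of Hnrnpl, was at 4.18 to 59.5 TPM in knockout and 9.86 to 98.6 TPM in wild type (-0.53, SE 0.87). Sfrs18 was at 4.96 to 271 TPM in knockout and 13.9 to 139.7 TPM in wild type (-0.64, SE 0.93). For each of the 3 genes the genotypes overlapped, and the 3 lowest libraries were knockout 4, knockout 5 and wild-type 5.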
